A study of Mus musculus with 3 samples.

Results

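The clustered protocadherin genes were examined as all KAP1 peaks and all H3K9me3 regions with a midpoint between 36.9 and 38.1 Mb on chromosome 18 of mouse build mm9, the 1.2 Mb interval that holds the Pcdha, Pcdhb and Pcdhg arrays in this order. The interval held 19 of the 19549 KAP1 peaks and 81 of the 39526 H3K9me3 regions of the deposited lists. Both lists come from chromatin immunoprecipitation with sequencing in C2C12, an established myoblast line from the C3H mouse strain, kept proliferating in serum-rich medium and not induced to differentiate. KAP1 was precipitated with a home-made rabbit polyclonal antibody and H3K9me3, trimethylated lysine 9 of histone H3, with a commercial antibody. Another library of the same cells, made with no antibody, has no list analysed here. There was 1 library per antibody and no replicate, so no difference below carries a spread between replicates or a test. Intervals cover counting error over calls only, and neighbouring calls are not independent of one another. The lists give no gene expression, so the muscle identity of the cells could not be checked against marker genes, and whether any protocadherin is transcribed in these cells was not measured.

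Clustered protocadherins are cadherin-family adhesion proteins of the cell surface, best known from neurons, where each cell uses its own combination of isoforms and like combinations recognise each other. In the Pcdha and Pcdhg arrays each variable first exon has its own promoter and is spliced to constant exons shared by the array, while the Pcdhb genes are single-exon genes without shared constant exons. Promoter choice involves the factor CTCF, cohesin and distant enhancers, and promoters not in use are known to carry DNA methylation. KAP1 (TRIM28) is a corepressor brought to DNA by KRAB zinc finger proteins, and it recruits SETDB1, the enzyme that places H3K9me3 at such sites. SETDB1 is known to act on the protocadherin locus in neurons.

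The 58 protocadherin genes considered are 14 Pcdha, 22 Pcdhb and 22 Pcdhg genes, and all 58 symbols are listed in the RefSeq gene table of GRCm38.p6. That table is of another build than the call lists, so it was used for gene order only. The order is that of coding genes and holds 57 of the 58, without Pcdhgb8, which is not listed as coding. In that order Pcdha1 comes first and Pcdhgc5 last. Other coding genes listed within the Pcdha array are Gm37013, between Pcdha3 and Pcdha4, and Gm38666 and Gm38667, between Pcdha6 and Pcdha7. Slc25a2 and Taf7, which encode a mitochondrial carrier and a subunit of the general transcription factor TFIID, stand between Pcdhb22 and Pcdhga1. Zmat2 is the nearest coding gene before the arrays, and Diaph1 and Hdac3 are the next after them. Distances from calls to the tandem first exons, and the borders between the 3 arrays, were not analysed here because no mm9 annotation was used. Calls are therefore given by position, and no call is assigned to a gene.

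H3K9me3 was dense over the interval. The 81 regions amounted to 67.5 per Mb (exact Poisson 95% interval 53.6 to 83.9), against 13.2 per Mb (10.2 to 16.8) in the 5 Mb before the interval and 10.2 per Mb (7.59 to 13.4) in the 5 Mb after it. The ratio to both flanks together was 5.77 (exact interval 4.29 to 7.72), and the ratio to all chromosomes, at 15.3 regions per Mb, was 4.41 (3.50 to 5.48). Covered length differed more than the number of calls, since the regions were also wider. H3K9me3 covered 148.9 kb, or 12.4% of the interval, against 1.30% of the flank before it, 0.851% of the flank after it and 1.54% of the span of all chromosomes. The covered share was 11.5-fold that of the flanks. Of 2129 other tiles of 1.2 Mb across the genome, 6 had more covered length and 17 had more H3K9me3 regions. None of the 70 tiles of chromosome 18 reached the interval in either measure, and the highest of them held 36 regions and 61.3 kb. These ranks describe the lists and are not a test.

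**Figure D1:**
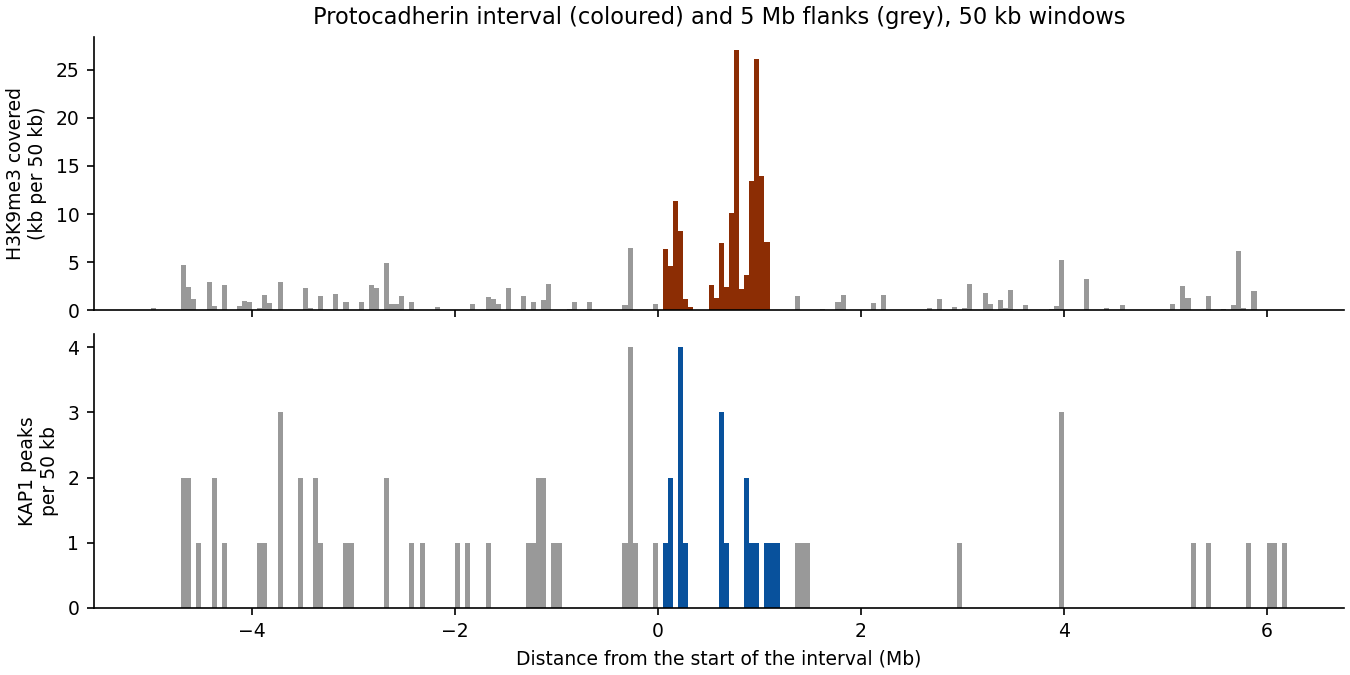
H3K9me3 covered length (upper panel, kb per 50 kb window) and number of KAP1 peaks (lower panel, per 50 kb window) from 5 Mb before to 5 Mb after the interval, by distance from its start in Mb; bars of the interval are coloured and those of the flanks grey. Covered length reached 27.1 kb per window in the interval and at most 6.50 kb in the flanks, while the highest KAP1 count was 4 in both.

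In windows of 50 kb both lists stood above the flanks. More than 5 kb of H3K9me3 lay in 10 of the 24 windows of the interval, in 1 of the 100 windows of the flank before it and in 2 of the 100 windows of the flank after it. A KAP1 peak lay in 12 of the 24 windows of the interval, in 29 of the 100 windows before it and in 11 of the 100 after it. The profile of 50 kb windows shows the interval as a block of high H3K9me3 cover with an empty stretch inside it. Single flank windows did hold both marks together. The window with the most H3K9me3 of the flank before the interval, 250 to 300 kb ahead of it, had 6.50 kb covered and held 4 KAP1 peaks.

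The calls at the edges place the borders of the marked stretch well inside the interval. The last H3K9me3 region before the interval, at 36861889 to 36862558 on chromosome 18, was 670 bp wide with a score of 54. The first inside it, at 36982924 to 36985213, was 2290 bp wide with a score of 173, after a gap of 120.4 kb. On the other side, the last region inside, at 37979302 to 37981055, was 1754 bp wide with a score of 138. The next region after the interval, at 38276154 to 38277659, was 1506 bp wide with a score of 121 and lay 295.1 kb further on. The nearest KAP1 peaks outside were at 36867649 to 36868176 with a score of 85.3 and at 38298456 to 38298959 with a score of 74.8. None of these calls is close to a limit of the interval: the nearest call of either list lay 31.8 kb from it, and the nearest H3K9me3 region 37.4 kb, so moving a limit by a few kb changes no member.

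H3K9me3 lay in blocks. Regions were chained where the gap between them was at most 20 kb, which gave 14 chains, of which 3 held at least 5 regions. These 3 blocks held 56 of the 81 regions and 71.2% of the covered length, and the first and last of them bounded a stretch of 898.0 kb. The first block ran from 37030235 to 37082073, 51.8 kb with 9 regions and 30.7% of its length covered. The second ran from 37613943 to 37720974, 107.0 kb with 18 regions and 36.8% covered. The third ran from 37828700 to 37928218, 99.5 kb with 29 regions and 51.0% covered. No chain of chromosome 18 held more regions than the third block, and the second block came next. Among the 21740 chains of all chromosomes, 24 held more regions than the third block. In the flanks 1 chain reached 5 regions, and it held 6.

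The 3 blocks differed in texture. In the third block the median step from region to region, midpoint to midpoint, was 2.42 kb, against 4.05 kb in the second and 5.78 kb in the first. Its regions had a median width of 1461 bp, close to the 1424 bp of the second block and above the 1045 bp of the first. Over the whole interval the median step was 4.27 kb (exact interval of the median 3.52 to 5.70), and 61 of the 80 steps were under 10 kb. The median step was 41.6 kb (30.2 to 77.7) in the flank before the interval and 45.6 kb (20.7 to 81.5) in the flank after it. The step depends on how the caller split broad signal. With regions within 1 kb of each other merged, 57 regions remained and the median step was 8.12 kb (5.33 to 12.7).

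Between the first and second blocks the mark was interrupted. From 37200765 to 37400125, a stretch of 199.4 kb, neither an H3K9me3 region nor a KAP1 peak was listed. This gap is the longest of the interval, and the next longest, of 70.5 kb, separated the second block from the next H3K9me3 region. Gaps of this length also occurred outside, with the longest at 348.3 kb in the flank before the interval and 484.1 kb in the flank after it. When the interval was divided into 3 equal parts of 400 kb, which are parts by position and not the arrays, the number of regions was 20 in the first, 22 in the second and 39 in the third. Their covered share was 8.04%, 12.6% and 16.6%. The exact intervals of density were 30.5 to 77.2, 34.5 to 83.3 and 69.3 to 133.3 per Mb, and the differences between the parts were not tested.

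**Figure D2:**
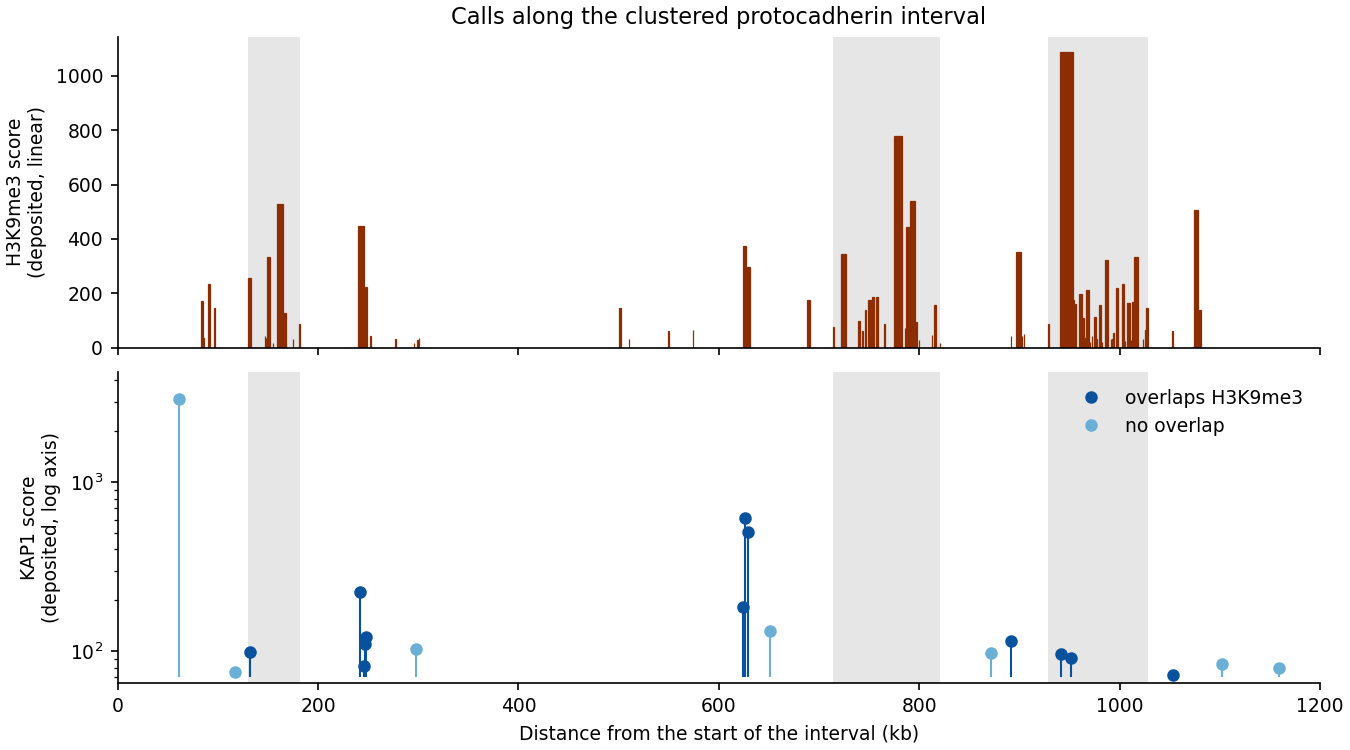
Calls along the interval by distance from its start in kb; the upper panel has a bar per H3K9me3 region, as wide as the region and as high as its deposited score (linear axis), and the lower panel has a line and point per KAP1 peak at its deposited score (log axis), dark where the peak overlaps H3K9me3. Grey bands are the 3 blocks of at least 5 H3K9me3 regions chained at gaps of at most 20 kb. The second block holds no KAP1 peak, and the high-scoring KAP1 peaks on H3K9me3 lie outside the bands.

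The H3K9me3 regions of the interval were wide. Their median width was 1358 bp (exact interval of the median 783 to 1754, quartiles 400 and 2455), against 649.5 bp (507 to 862) in the flank before it, 565 bp (410 to 682) in the flank after it and 607 bp in the whole list. The lower quartile, 400 bp, was close to the 408.8 bp and 308 bp of the flanks, so the shift lay in the wider regions. Of the 81 regions 14 (17.3%) spanned at least 3 kb, against 5 of 117 in the flanks (4.27%) and 6.09% of the whole list. The score of the H3K9me3 list, a whole number given by the authors, followed width so closely (Spearman's rho of 0.991 across the 81 regions and 0.987 across the list, given as a description) that it adds little to the width. Its median was 98 in the interval and 53 in the list.

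The widest region of the interval spanned 12468 bp, from 37840546 to 37853013 in the third block, with a score of 1089. It was also the widest region of chromosome 18. The next, from 37674372 to 37683145 in the second block, spanned 8774 bp with a score of 777. A region of 5900 bp with a score of 527 lay in the first block at 37059523 to 37065422. The fourth, of 5814 bp with a score of 446, stood outside the blocks at 37140196 to 37146009. The fifth, of 5223 bp with a score of 539, was in the second block at 37690962 to 37696184. For comparison, the widest region was 4369 bp in the flank before the interval, at 34243157 to 34247525, and 5260 bp in the flank after it, at 40868113 to 40873372. Both flank regions held KAP1 peaks, 2 and 3 respectively, whereas of the 5 regions of the interval the first and the fourth held 2 each and the others held none.

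KAP1 peaks were also more frequent in the interval than around it, by less than H3K9me3. The 19 peaks amounted to 15.8 per Mb (exact interval 9.53 to 24.7), against 8.40 per Mb (6.05 to 11.4) before the interval and 2.60 per Mb (1.38 to 4.45) after it. The ratio was 2.88 (1.61 to 4.93) to both flanks, 1.88 (1.04 to 3.31) to the flank before alone, 6.09 (2.85 to 13.4) to the flank after alone, and 2.09 (1.26 to 3.27) to all chromosomes. Their scores were spread like those of the list. The median score was 102.5, against 106.1 in the whole list and 92.9 and 88.9 in the flanks before and after, and 47.4% of the peaks were in the upper 50% of the list by score. Their median width was 632 bp, against 651 bp in the list. In 93 of the 2129 tiles there were more KAP1 peaks than in the interval.

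Of the 19 KAP1 peaks 12 overlapped an H3K9me3 region, 63.2% (exact binomial interval 38.4 to 83.7), where the share of the whole list was 44.1%. In the flanks it was 18 of 55, or 32.7% (20.7 to 46.7). The whole-list share lies within the counting interval of the protocadherin value and the flank share lies below it, and neither difference was tested. The overlap was mostly deep, here as in the whole list. At least 50% of the peak lay in H3K9me3 for 11 of the 12 overlapping peaks, against 7405 of the 8623 of the whole list. Among all peaks this was 11 of the 19, against 37.9% of the whole list. In the interval 7 peaks lay in H3K9me3 over their full length. The 12 peaks fell on 8 H3K9me3 regions, 4 of which held 2 peaks each.

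The 2 highest-scoring KAP1 peaks on H3K9me3 lay in a group of 3 next to each other. A peak of 2576 bp at 37524583 to 37527158 scored 610.8 and a peak of 3642 bp at 37527286 to 37530927 scored 508.9. These values stand at the 97.4th and 96.5th percentile of the KAP1 list by score, and at the 99.3rd and 99.7th by width. A smaller peak of 632 bp just before them, at 37523931 to 37524562, scored 183.3. The 3 peaks together matched a pair of H3K9me3 regions of 3430 and 3526 bp, from 37523688 to 37530974, almost end to end, and 98.4% and 95.5% of the 2 large peaks were covered. This pair of regions stood alone, with 49.1 kb to the H3K9me3 region before it and 57.5 kb to the one after it, outside all 3 blocks.

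A second group of 4 KAP1 peaks also lay between blocks. The peak at 37141177 to 37142166 scored 225.1, and those at 37145617 to 37146216, 37146427 to 37147171 and 37147503 to 37148124 scored 82.2, 109.8 and 121.4. They lay on the region of 5814 bp named above and on its neighbour of 2455 bp, at 37146360 to 37148814. These 2 groups held 7 of the 12 KAP1 peaks on H3K9me3, and the pairs of regions beneath them held 15.2 kb of the 148.9 kb covered.

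The 3 blocks together held 3 KAP1 peaks in 258.4 kb, or 11.6 per Mb (exact Poisson interval 2.39 to 33.9), a wide interval that includes the 15.8 per Mb of the whole protocadherin interval and the 7.57 per Mb of all chromosomes. In the first block a single peak, at 37031606 to 37032181, scored 99.4. The second block, with 18 H3K9me3 regions and 39.4 kb covered, held no KAP1 peak. The third block, with 29 regions and 50.7 kb covered, held 2, both on its widest region: 37841587 to 37842281 with a score of 96.3, and 37851179 to 37851669 with a score of 90.9. Their midpoints stood at 11.1% and 87.3% of the length of that region, toward its opposite ends. Of the remaining peaks with H3K9me3, that at 37791762 to 37792434 scored 115.2, with 46.7% of its length covered. The other, at 37953040 to 37953510, scored 72.5, with 74.9% covered.

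Over all widths the share of H3K9me3 regions holding KAP1 was near that of the flanks, and among wide regions it was lower than in the list. Of the 81 regions 8 held KAP1, 9.88% (exact binomial interval 4.36 to 18.5), against 15.4% of the whole list and 10.3% in the flanks, both inside that counting interval. The flanks were unlike: 11 of 66 regions (16.7%) held KAP1 before, and 1 of 51 (1.96%) after, which is below that counting interval. With both lists limited to their upper 50% by score, 4 of 53 regions of the protocadherin interval held KAP1, 7.55% (2.09 to 18.2). The share over all chromosomes under the same limit, 18.5%, lay just outside that counting interval. Among regions of at least 3 kb 4 of 14 did, 28.6% (8.39 to 58.1), where 70.7% of the 2406 such regions of the whole list and 4 of 5 in the flanks held a peak. Among narrower regions 4 of 67 did, 5.97% (1.65 to 14.6), against 11.9% of the whole list. The limit of 3 kb was chosen after the data were seen, and with limits of 2 kb and 4 kb the shares were 22.2% each, against 58.1% and 74.8% of the list. Per 100 kb of H3K9me3, the interval had 8.06 KAP1 peaks on the mark (exact Poisson interval 4.16 to 14.1), the whole list 21.7 and the flanks 16.7 (9.90 to 26.4). The whole-list value lies outside the counting interval of the protocadherin value. The flank before the protocadherin interval had 23.0 (12.9 to 37.9, from 15 peaks) and the flank after it 7.05 (1.45 to 20.6, from 3 peaks). Among tiles of the genome rich in H3K9me3, the 12 KAP1 peaks on the mark were not a low count. The 6 tiles with at least the covered length of the interval held a median of 9 such peaks. In the 18 tiles with at least 81 H3K9me3 regions the median was 4.5. The highest count in each set was 17.

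**Figure D3:**
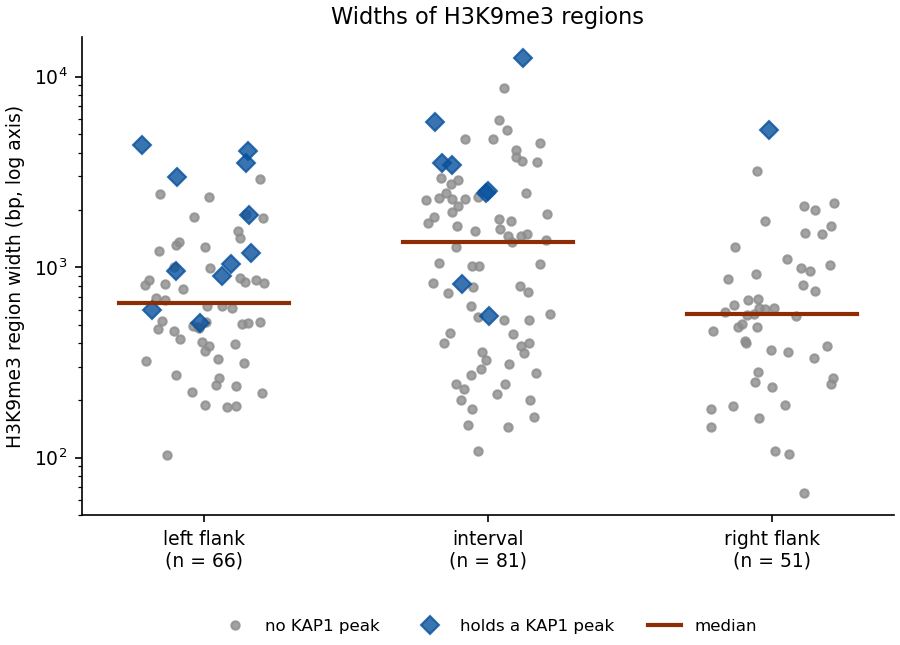
Width of each H3K9me3 region (bp, log axis) in the flank before, the protocadherin interval and the flank after; blue diamonds hold a KAP1 peak, grey points do not, and the bar is the median. The medians are 649.5, 1358 and 565 bp, and 10 of the 14 regions of at least 3 kb in the interval hold no KAP1 peak.

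The 7 KAP1 peaks without H3K9me3 included the highest score of the interval. The peak at 36961200 to 36962055, 856 bp wide, scored 3100, the 99.7th percentile of the list and a value that 99 peaks of the list share exactly. It is the first KAP1 peak of the interval and lay 20.9 kb before the first H3K9me3 region. The others scored between 75.9 and 131.5. The peak at 37197073 to 37197924, with a score of 102.5, lay 0.896 kb from the nearest H3K9me3 region. Those at 37017023 to 37017470 (score 75.9), 37551056 to 37551939 (131.5) and 37771297 to 37771882 (97.9) lay 12.8, 20.1 and 19.6 kb away. The last 2 peaks of the interval, at 38002245 to 38002642 with a score of 83.9 and at 38059343 to 38059721 with a score of 79.5, lay 21.2 and 78.3 kb beyond the last H3K9me3 region. The median score was 97.9 without H3K9me3 and 112.5 with it.

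**Figure D4:**
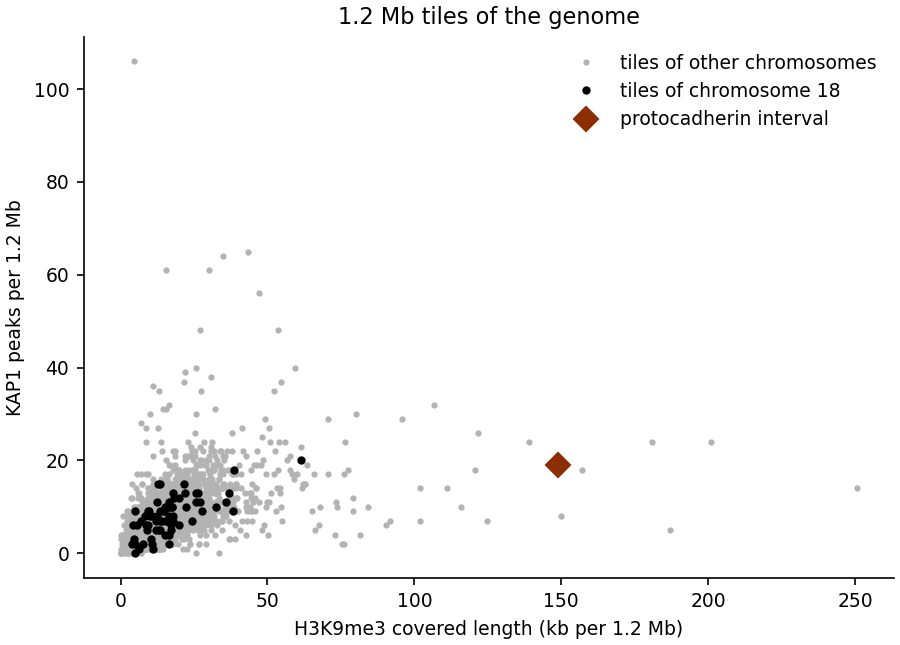
Number of KAP1 peaks against H3K9me3 covered length (kb) for 2129 tiles of 1.2 Mb; grey points are tiles of other chromosomes, black points the 70 tiles of chromosome 18, and the diamond the protocadherin interval, at 148.9 kb and 19 peaks. The interval lies far to the right of the other tiles of chromosome 18, and its KAP1 count is exceeded by 1 of them.

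The KAP1 count of the interval lay within the range of tiles with as much H3K9me3. The 6 tiles with at least its covered length held between 5 and 24 KAP1 peaks with a median of 16, and 4 of them held fewer than 19. The 18 tiles with at least 81 H3K9me3 regions held between 2 and 32 KAP1 peaks with a median of 10, and 13 of them held fewer than 19. On chromosome 18, 1 tile held more KAP1 peaks, with 20. Over all 2129 tiles the median was 8 KAP1 peaks, and 94.8% of the tiles held fewer than 19.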

How the data were processed

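The submitters' processing notes name Bowtie2 2.2.1 and mm9. Both deposited lists hold positions, a name and a score per call, and the authors' score is used only within its own list. The meaning of the scores, the callers' settings and any control used in calling were not given in the sources used here, and read depth is unknown. Call names are numbered, and each list holds part of the numbered calls. Of the H3K9me3 numbers spanned by the interval 81 of 83 are listed, against 92.9% in the flanks and 84.3% over the list. Of the KAP1 numbers 19 of 29 (65.5%) are listed, against 55 of 124 (44.4%) in the flanks and 53.7% over the list. The KAP1 density ratio to the flanks therefore depends on which numbered calls were kept, by a rule not given.

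Starts were counted from 1 and membership was by midpoint. Overlap meant at least 1 bp. Density ratios have conditional exact intervals, shares have Clopper-Pearson intervals, and medians have order-statistic intervals, all at 95%. Densities of all chromosomes used the span between the first and last call of each chromosome. Named were all KAP1 peaks of the interval (20 or fewer), the 5 widest H3K9me3 regions, the outermost calls and the widest region of each flank. The alternatives were the upper 50% of a list by score, 2 Mb flanks, calls merged within 1 kb, a narrowed interval, membership by any overlap, other overlap limits and other chain gaps. The genes, the interval and the measures were chosen with earlier results of these data known. Computation used Python 3.11.15, numpy 2.4.6, pandas 2.3.3, scipy 1.17.1 and matplotlib 3.10.9, and the density, overlap and cover routines were tested on simulated lists.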

Additional observations from a re-analysis of the deposited data

How the results depend on the processing

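The H3K9me3 density ratio to the flanks was 4.48 with calls within 1 kb merged, 7.24 in the upper 50% of the list by score, and 4.04 without the block of 29 regions, an alternative chosen after seeing the data. The covered share stood between 8.28-fold and 15.1-fold that of the flanks over its alternatives. The KAP1 ratio was 2.50 with merged calls. It was 1.88 against the flank before the interval alone and 6.09 against the flank after it alone, both likewise added. The median step between H3K9me3 regions was 8.12 kb with merged calls and 7.12 kb in the upper 50% by score, both of which leave fewer regions. The share of KAP1 peaks with H3K9me3 ranged from 57.9% to 68.4%, and that of H3K9me3 regions with KAP1 from 7.55% to 11.1%. The lowest of these, in the upper 50% by score, stood against 18.5% over all chromosomes under the same limit, outside its counting interval. With a chain gap of 50 kb, 5 blocks held all 81 regions, from 36982924 to 37981055, and with 10 kb 3 blocks held 49. The place of the 2 groups of KAP1 peaks outside the blocks therefore does not hold at 50 kb. Over all alternatives 32 values stayed within the interval of the reported value, or within 1.5 times it for lengths, and 4 did not. The alternatives reuse the same calls and several of the intervals are wide, so this tally says little about how stable the values are. KAP1 merged within 1 kb left 15 peaks. Those of them on H3K9me3 came to 5.37 per 100 kb of H3K9me3, against 16.4 over the list. No paired analysis was possible because each antibody has a single library, and none could be left out. With the read depth unknown, an absent call, also in the stretch without calls, cannot be told from too few reads.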
